A study of Mus musculus with 14 samples.

Results

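Serum proteins of wounded mice that wore a wet dressing without suction, at atmospheric pressure (AP), for 16 h were set against those of AP at 0 h, the control of the study. The comparison takes in 4 samples of 14, 2 in each group, and 111 analytes in every sample. All samples came from male C57BL/6JNarl mice of 8 weeks, in which a full-thickness wound was punched into the back, although no source used here says whether the mice bled at 0 h had been wounded. Neither group received negative pressure. Blood from the cheek stood for 0.5 to 2 h before it was spun, and which of these times applied to which sample is not given. Portions of serum were combined for each membrane, so that a sample is a pool and not an animal. The methods speak of duplicates from independent experiments, while the design note in GEO exempts the 0 h time from repetition. It is not stated that the paired samples came from different mice, and p-values therefore describe only how far these samples lay apart, which may be a technical spread.

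The array is a membrane with antibodies against cytokines, chemokines, growth factors, enzymes and shed receptors, on which bound protein is read as light. After a skin wound, platelets plug the cut vessels and release growth factors, neutrophils arrive and release granule enzymes, and the liver answers signals such as IL-6 with acute-phase proteins that enter the blood over hours. Endothelial cells shed adhesion molecules into serum when they are activated. Serum is the fluid left after clotting, so that it also holds what platelets and leukocytes release into the tube.

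Brightness differed between the membranes of both groups. The 3 rows of reference spots, which carry a fixed label and no serum protein, had a mean raw intensity of 25448 ± 154 at AP 16 h and 165561 ± 3560 at AP 0 h (SD, n = 2 each), so that the 0 h membranes were 6.51 times brighter there. The median analyte had a raw intensity of 698 and 627 at AP 16 h, against 1448 and 2263 at AP 0 h. Abundant plasma proteins such as Adiponectin and Complement Factor D were among the 11 brightest analytes in all 4 samples. Each analyte was expressed as a percentage of the mean reference spot of its membrane, and also by its rank within the membrane, where 1 is the brightest of 111. The negative control, a spot with no antibody against a serum protein, read 203 and 296 at AP 16 h, which is 0.794 and 1.17% of the reference. At AP 0 h it read 73 and 21, or 0.0448 and 0.0125% of the reference. On the log2 scale its reference-scaled difference was 5.35, and 0 of the 111 analytes had a larger one. The part of this shift in the differences of dim analytes was not tested, and analytes near the negative control are marked as such. At AP 16 h, 65 analytes lay above the negative control in both samples, 14 in 1 sample and 32 in neither, against 110, 1 and 0 at AP 0 h.

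Relative to the reference spots most of the array was higher at AP 16 h. limma's moderated test on log2 of the reference-scaled intensity, with an adjusted p under 0.05, called 96 of 111 analytes higher (86.5%) and 6 lower (5.41%), and 9 did not pass. The median difference was 1.53 on the log2 scale, a fold of 2.89, and it was 1.15 over the 65 analytes above the negative control in both 16 h samples. Of the 96 called higher, 26 were above the negative control in neither 16 h sample and 13 in only 1. The values of both groups did not overlap for 101 analytes that were higher at AP 16 h (91%) and 7 that were lower (6.31%). The split depended on the scaling. On raw intensity, where the median difference was -1.17, 8 analytes were higher and 80 lower, with each membrane scaled to its median 31 were higher and 28 lower, and with the negative control subtracted 48 were higher and 37 lower. A second fit used quantile-normalized intensities, which depend only on the rank of an analyte within its membrane. In this rank fit 33 analytes were higher and 33 lower (29.7% each), and 45 did not pass. All 33 with a higher rank were also higher relative to the reference spots. Of the 33 with a lower rank, 6 were lower relative to the reference spots and 19 were higher. Over 18 limma settings fitted to all 111 analytes, 6 analytes were called higher in each one (Pentraxin 2, Pentraxin 3, Endoglin, Serpin E1, IL-33 and IL-28A/B) and 5 lower (EGF, MMP-9, PDGF-BB, Lipocalin-2 and HGF).

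**Figure D1:**
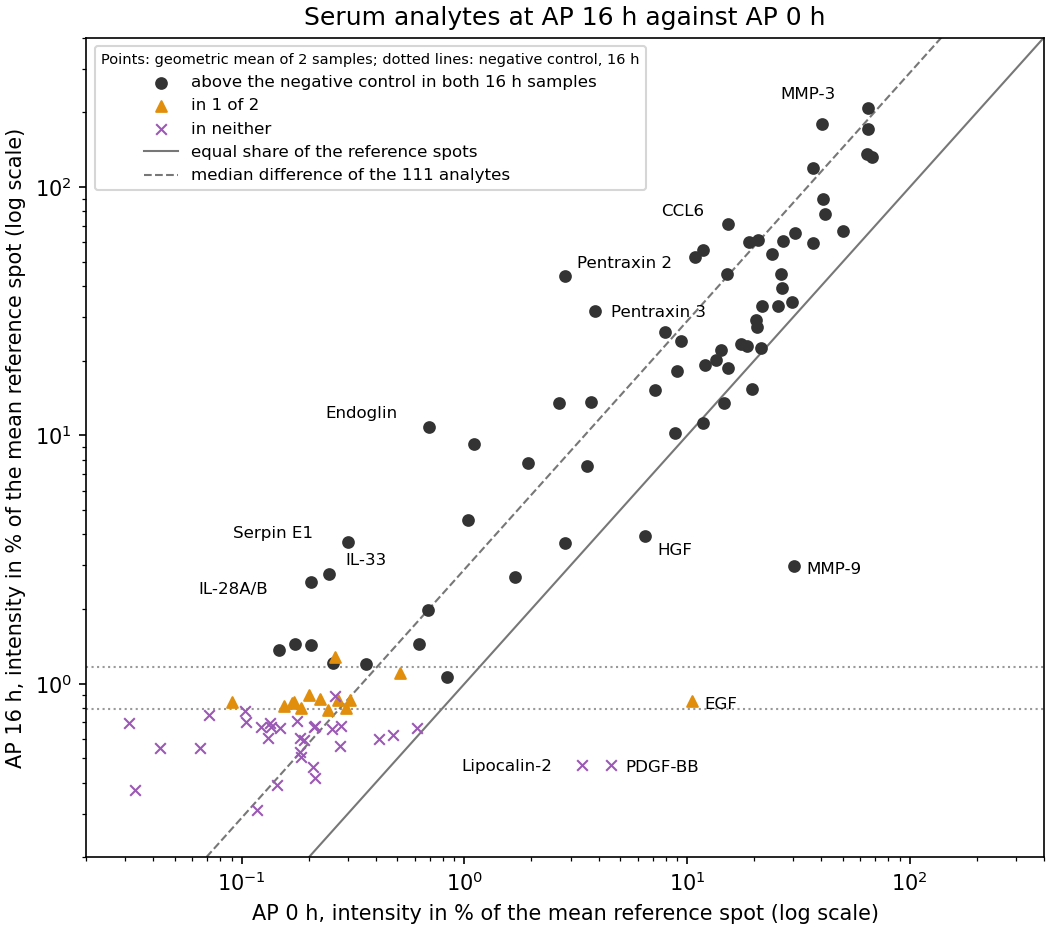
Each point is 1 of 111 analytes, with its intensity at AP 0 h on the x axis and at AP 16 h on the y axis, both in percent of the mean reference spot on log scales and as geometric means of 2 samples. Most points lie above the solid line of equality near the dashed line of the median difference (1.53 on the log2 scale), EGF, MMP-9, PDGF-BB, Lipocalin-2 and HGF lie below the line of equality, and the crosses are the 32 analytes above the negative control in neither 16 h sample.

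The pentraxins, pattern-recognition proteins of the acute phase, were among the analytes that moved furthest. Pentraxin 2, also known as serum amyloid P and the main acute-phase reactant of the mouse, reached 43.0 and 44.9% of the reference at AP 16 h, against 3.43 and 2.31% at AP 0 h. Even its raw intensity was higher, at 10979 and 11385 against 5594 and 3891. It ranked 21 and 20 at AP 16 h, against 50 and 51 at AP 0 h, with no overlap between the groups. The reference-scaled difference was 3.96 ± 0.13 on the log2 scale (SE, limma adjusted p = 1.6e-13) and that of the rank fit 2.32 (adjusted p = 5.3e-10). Pentraxin 3, which is made by endothelial and myeloid cells rather than the liver, had 28.3 and 35.4% at AP 16 h, against 4.53 and 3.26% at AP 0 h, a difference of 3.04 ± 0.14 (adjusted p = 5.9e-12). Its ranks were 27 and 23 at AP 16 h, against 45 and 48 at AP 0 h. C-reactive protein, a pentraxin that responds only weakly to injury in mice, had 116 and 122% at AP 16 h, against 37.8 and 35.9% at AP 0 h. It was thus brighter than the reference spots in both later samples, and its rank was 6 in both, against 9 and 10 at AP 0 h (rank fit 0.57, adjusted p = 0.00016). Its raw intensity was lower, at 29761 and 30893 at AP 16 h against 61552 and 60281 at AP 0 h. The complement proteins of the same list held their places. Complement Factor D, the protease that starts the alternative pathway, ranked 11 in all 4 samples, and Complement Component C5 ranked 49 and 48 at AP 16 h, against 51 and 46 at AP 0 h. In the list of 5, 5 were higher relative to the reference spots and 3 in the rank fit, with medians of 1.70 and 0.57, against 1.53 and -0.011 over all analytes. The counts given for this and the other lists stand beside a share of 29.7% of all analytes called in each direction of the rank fit. Relative to the reference spots the shares of all analytes were 86.5% called higher and 5.41% lower.

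The list of adhesion molecules shed from endothelium and platelets, which also holds Endoglin, had the highest median of any list in the rank fit, 1.17. Of its 5 members 4 were higher, Endoglin by the most (2.10), and 1 was lower. The list median was not computed without Endoglin. Endoglin, a coreceptor for TGF-β on endothelial cells, had 11.1 and 10.6% of the reference at AP 16 h, against 0.853 and 0.565% at AP 0 h. The reference-scaled difference of 3.97 ± 0.16 (adjusted p = 1.1e-12) was the largest among analytes above the negative control in both 16 h samples, and its raw intensity of 2848 and 2677 also exceeded the 1391 and 949 at AP 0 h. VCAM-1, which holds leukocytes on activated endothelium, had 52.5 and 51.9% at AP 16 h, against 11.3 and 10.3% at AP 0 h. It ranked 17 and 18 at AP 16 h, against 37 in both samples at AP 0 h. Its difference was 2.27 ± 0.11 relative to the reference spots (adjusted p = 1.6e-11) but -0.43 on raw intensity. E-Selectin, made by endothelium only after activation, moved in parallel, with 56.6 and 55.3% at AP 16 h, against 12.1 and 11.5% at AP 0 h, and ranks of 16 and 17, against 35 in both (rank fit 1.17, adjusted p = 1.4e-07). P-Selectin, which platelets and endothelium keep in granules, gained less, with 61.8 and 60.8% at AP 16 h, against 21.5 and 20.3% at AP 0 h (rank fit 0.45, adjusted p = 1.3e-05). ICAM-1, another leukocyte ligand of endothelium, had 27.2 and 27.5% at AP 16 h and 21.6 and 19.6% at AP 0 h, and its rank was lower, 28 in both samples against 20 and 23 (rank fit -0.39, adjusted p = 0.012). The rank call of ICAM-1 was lost without the first 0 h sample (adjusted p = 0.11).

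Platelet and clotting proteins went in opposite directions. Serpin E1, the inhibitor of plasminogen activators that slows the dissolution of clots, had 3.85 and 3.57% of the reference at AP 16 h, against 0.336 and 0.265% at AP 0 h. Its raw intensity was 985 and 904 at AP 16 h, 4.85 and 3.05 times the negative control, against 548 and 446 at AP 0 h. The difference was 3.63 ± 0.17 (adjusted p = 5.9e-12) and 2.53 in the rank fit (adjusted p = 2.2e-08). PDGF-BB, a platelet growth factor for fibroblasts and pericytes, had a raw intensity of 203 and 70 at AP 16 h, not above the negative control in either sample, against 6962 and 8156 at AP 0 h. It was at least 4.69-fold lower at AP 16 h, a bound set by the lowest analyte above the negative control on each 16 h membrane, and its measured values gave a difference of -3.28 ± 0.31 (adjusted p = 8.1e-08). Its rank was 79.5 and 110 at AP 16 h, against 47 and 45 at AP 0 h. Thrombopoietin, the liver hormone of platelet formation, had ranks of 36 and 38 at AP 16 h and 34 and 36 at AP 0 h, which did not pass the rank fit (-0.12 ± 0.10, adjusted p = 0.29, but -0.33, adjusted p = 0.0093, among the 43 analytes above 10 times the negative control in both 16 h samples). Coagulation Factor III, or tissue factor, the trigger of clotting, was above the negative control in 1 of the 16 h samples, with 0.888 and 0.714%, against 0.342 and 0.250% at AP 0 h (rank fit -0.58 ± 0.31, adjusted p = 0.14). Without the first 16 h sample it was called lower (-1.04, adjusted p = 0.025), as it was when analytes below the negative control were left out (-1.59, adjusted p = 0.0007), and the value without the second 16 h sample was -0.16 (adjusted p = 0.73). Relative to the reference spots 3 of these 4 were higher and 1 lower, where 86.5% of all analytes were called higher and 5.41% lower. In the rank fit 1 was higher and 1 lower.

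Of 5 growth factors of tissue repair, 2 were higher and 3 lower in the rank fit, in which 29.7% of all analytes were called each way. EGF, which drives the division of keratinocytes and is made in large amounts by mouse salivary glands, had 0.802 and 0.912% of the reference at AP 16 h, against 11.1 and 10.1% at AP 0 h. In raw intensity these were 205 and 231 at AP 16 h, above the negative control in only 1 sample, and 18067 and 16900 at AP 0 h. The difference of -3.63 ± 0.33 (adjusted p = 4.3e-08) rests on spots at the level of the negative control, so that its size cannot be ranked against those of PDGF-BB and Lipocalin-2, and the ranks of EGF were 77.5 and 70, against 38 in both 0 h samples. Amphiregulin, a ligand of the same receptor, went the other way, with 1.17 and 1.58% at AP 16 h, against 0.278 and 0.0767% at AP 0 h. It was only 1.48 and 1.35 times the negative control at AP 16 h, its 0 h samples were far apart, and the difference of 3.22 ± 0.62 (adjusted p = 0.00017) was not called on raw intensity (0.52, adjusted p = 0.43) and also missed the threshold after subtraction of the negative control (1.71, adjusted p = 0.32). In the rank fit it was 2.13 (adjusted p = 0.015), a call lost without the second 16 h sample (adjusted p = 0.062) and without the second 0 h sample (adjusted p = 0.17). HGF, a mitogen that stromal cells make for epithelium, had 4.00 and 3.88% at AP 16 h, against 6.49 and 6.42% at AP 0 h. The difference was small but close between replicates, -0.71 ± 0.11 (adjusted p = 2.9e-05), and -0.81 in the rank fit (adjusted p = 4.4e-05). FGF acidic, a broad mitogen without a signal peptide, was above the negative control in neither 16 h sample. Its rank was 109 and 108 at AP 16 h, against 101 and 92 at AP 0 h (rank fit -1.01, adjusted p = 0.035), a call lost without either 16 h sample (adjusted p = 0.12 without the first and 0.075 without the second) and without the second 0 h sample (adjusted p = 0.20). Gas 6, a ligand of TAM receptors, had 17.8 and 18.5% at AP 16 h and 8.54 and 9.60% at AP 0 h. Its rank call (0.23, adjusted p = 0.026) was lost without either 16 h sample (adjusted p = 0.050 without the first and 0.14 without the second) and without the first 0 h sample (adjusted p = 0.16), and among the 43 analytes above 10 times the negative control in both 16 h samples its sign turned (-0.0642).

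Neutrophil granule and antimicrobial proteins had the lowest list median in both fits, -0.35 relative to the reference spots and -0.93 in the rank fit, with 4 of 5 members lower by rank and 0 higher. Relative to the reference spots 3 members were lower and 2 higher, where 5.41% of all analytes were called lower and 86.5% higher. MMP-9, the gelatinase that neutrophils store in granules, had 3.28 and 2.72% of the reference at AP 16 h, against 31.1 and 29.4% at AP 0 h. It ranked 12 in both 0 h samples, among the brightest analytes, and 54 and 55 at AP 16 h. The difference was -3.34 ± 0.09 (adjusted p = 4.2e-14), a fold of 10.1 lower, and MMP-9 remained above the negative control in both 16 h samples (4.13 and 2.32 times). Lipocalin-2, an iron-scavenging granule protein that the liver also makes in the acute phase, had a raw intensity of 102 and 140 at AP 16 h, below the negative control in both, against 7337 and 4270 at AP 0 h. It was at least 3.48-fold lower at AP 16 h, and its measured values gave -2.85 ± 0.36 (adjusted p = 2.4e-06). The methods' t-test did not call Lipocalin-2 lower, either unadjusted or after Benjamini-Hochberg, so that its call rests on the limma fits. Myeloperoxidase, the peroxidase of neutrophil granules, had 15.8 and 15.1% at AP 16 h, against 20.6 and 18.8% at AP 0 h, with ranks of 40 and 39, against 24 and 25. Its reference-scaled difference of -0.35 ± 0.12 (adjusted p = 0.013) was lost without the second 16 h sample (adjusted p = 0.059) and without the first 0 h sample (adjusted p = 0.086), and was -0.0381 (adjusted p = 0.76) with the second reference row alone, while the rank fit gave -0.93 (adjusted p = 1.0e-05). Chitinase 3-like 1, a secreted lectin of macrophages and neutrophils, ranked 33 and 31 at AP 16 h and 27 and 24 at AP 0 h (rank fit -0.42, adjusted p = 0.00017). This call was lost when only the 2 groups compared were fitted (adjusted p = 0.058). Relative to the reference spots Chitinase 3-like 1 was called higher (0.31, limma adjusted p = 0.001). It had 22.3 and 23.5% at AP 16 h, against 18.1 and 19.0% at AP 0 h. Reg3G, an antimicrobial lectin of epithelia, was brighter than the reference spots at AP 16 h (135 and 136%) and had 67.8 and 60.9% at AP 0 h, with ranks of 4 in both samples, against 1 and 4 (rank fit -0.22 ± 0.11, adjusted p = 0.11). Without the second 0 h sample it was called lower by rank (-0.47, adjusted p = 0.00058), and without the first its difference was 0.

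Proteins of the matrix moved both ways. MMP-3, or stromelysin, which stromal cells make and which activates other proteases, was the brightest analyte of both 16 h membranes, at 211 and 208% of the reference, and ranked 3 in both samples at AP 0 h, with 67.2 and 62.9% (rank fit 0.30, adjusted p = 4.6e-05). Periostin, a matricellular protein of fibroblasts, ranked 19 and 21 at AP 16 h, against 29 and 31 at AP 0 h (rank fit 0.67, adjusted p = 2.1e-06). Osteopontin ranked 13 in both samples at AP 16 h, against 15 and 16 at AP 0 h, and did not pass the rank fit (0.11 ± 0.06, adjusted p = 0.16). MMP-2, the gelatinase of fibroblasts, had 14.3 and 12.7% at AP 16 h and 14.5 and 14.9% at AP 0 h, and ranked 41 and 43, against 31 and 29 (rank fit -0.75, adjusted p = 0.00018). Within the list of 4, 2 members were higher and 1 lower by rank.

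**Figure D2:**
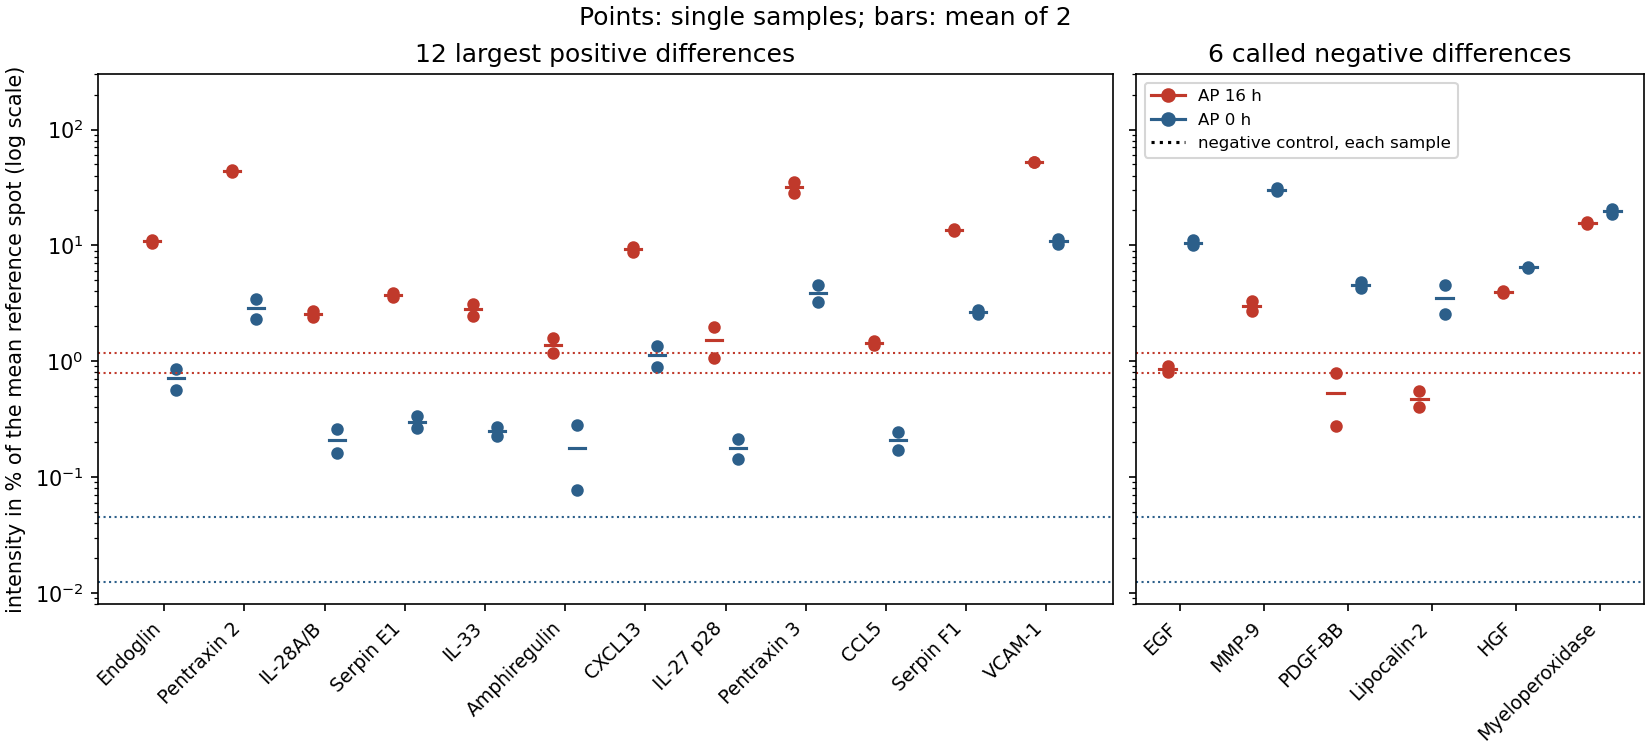
Intensity in percent of the mean reference spot on a log scale for the 12 largest positive differences among analytes above the negative control in both 16 h samples (left) and the 6 analytes called lower (right), with AP 16 h in red left of AP 0 h in blue, single samples as points, the mean of 2 as a bar and the negative control of each sample as a dotted line. Pentraxin 2 at AP 16 h (43.0 and 44.9%) is far above the negative control of its membranes, while CCL5, IL-27 p28 and Amphiregulin are close to it and PDGF-BB and Lipocalin-2 lie at or below it.

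Among the 12 CC chemokines and chemerin, 5 had a higher rank and 3 a lower one, where 29.7% of all analytes were called each way, and the median was 0.66 in the rank fit. CCL6, which macrophages and other myeloid cells of rodents make, stood out in the upper part of the array with 68.1 and 73.7% of the reference at AP 16 h, against 15.9 and 14.7% at AP 0 h. It ranked 9 in both 16 h samples, against 28 and 30 (rank fit 1.26, adjusted p = 2.6e-07). Its raw intensity was lower, at 17408 and 18682 at AP 16 h against 25913 and 24662 at AP 0 h. CCL17, a ligand of CCR4 on T cells, had 4.69 and 4.44% at AP 16 h, against 0.807 and 1.35% at AP 0 h (rank fit 1.33, adjusted p = 0.00045, and 0.77 without the first 0 h sample). CCL22, which binds the same receptor, ranked 42 and 41 at AP 16 h, against 48 and 47 at AP 0 h (rank fit 0.58, adjusted p = 0.0002). When only the 43 analytes above 10 times the negative control in both 16 h samples were ranked, the value of CCL22 turned to -0.15 (adjusted p = 0.29). CCL5, released by T cells and platelets, had a raw intensity of 380 and 348 at AP 16 h, 1.87 and 1.18 times the negative control, against 396 and 290 at AP 0 h. Its reference-scaled difference of 2.80 ± 0.59 (adjusted p = 0.00036) came with raw values that overlapped (0.10, adjusted p = 0.87), and its rank call (1.73, adjusted p = 0.01) was lost without the first 16 h sample (adjusted p = 0.06) or the second 0 h sample (adjusted p = 0.071). The monocyte attractant CCL2 was above the negative control in 1 of the 16 h samples, with 1.98 and 0.829%, against 0.309 and 0.223% at AP 0 h (rank fit 0.74 ± 0.66, adjusted p = 0.35). CCL21, which guides cells to lymph nodes, ranked 24 in both 16 h samples, against 13 in both at AP 0 h (rank fit -0.69, adjusted p = 4.9e-08). Chemerin, a leukocyte attractant made by liver and fat, had 21.9 and 23.1% at AP 16 h and 22.8 and 20.2% at AP 0 h, and its rank was 34 and 32, against 19 and 21 (rank fit -0.81, adjusted p = 1.4e-06). CCL11, or eotaxin, ranked 37 and 36 at AP 16 h, against 30 and 28 at AP 0 h (rank fit -0.42, adjusted p = 0.0008). Relative to the reference spots CCL21 (0.23, limma adjusted p = 0.01) and CCL11 (0.29, limma adjusted p = 0.0067) were called higher.

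Of 9 CXC and CX3C chemokines, 1 had a higher rank at AP 16 h and 1 a lower one. CXCL13, which draws B cells into follicles, had 9.72 and 8.71% of the reference at AP 16 h, against 0.888 and 1.36% at AP 0 h. It ranked 47 in both 16 h samples, against 56 and 55, and the difference was 3.07 ± 0.15 relative to the reference spots (adjusted p = 1.5e-11), 1.21 in the rank fit (adjusted p = 2.4e-07) and 0.37 on raw intensity (adjusted p = 0.057). LIX, or CXCL5, a neutrophil attractant, was brighter than the reference at AP 16 h (173 and 171%) and had 63.9 and 66.2% at AP 0 h, with ranks of 3 in both samples, against 4 and 2. The neutrophil attractants CXCL1 and CXCL2 lay near the negative control at AP 16 h, with 0.743 and 0.588% for CXCL1 and 0.802 and 0.762% for CXCL2, and their rank differences of 0.10 ± 0.51 and -0.04 ± 0.36 did not pass.

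Most interleukins were close to the negative control at AP 16 h. Of 7 T cell and type 2 cytokines and interferons, 4 had a higher rank and 0 a lower one, but 5 of the 7 were above the negative control in neither 16 h sample. In the IL-1 family 1 of 4 had a higher rank and 1 a lower one, as in the IL-12 and IL-17 axis, and among gp130 cytokines 1 of 4 had a higher rank and 2 a lower one. IL-33, an alarmin held in the nuclei of epithelial and endothelial cells, had a raw intensity of 795 and 627 at AP 16 h, 3.92 and 2.12 times the negative control, against 367 and 454 at AP 0 h. In percent of the reference this was 3.11 and 2.47 at AP 16 h and 0.225 and 0.270 at AP 0 h, a difference of 3.49 ± 0.28 (adjusted p = 7.7e-09), with ranks of 55 and 56, against 81 and 70. IL-28A/B, the type III interferons of epithelial defence, had 698 and 614 raw at AP 16 h, 3.44 and 2.07 times the negative control, against 424 and 269 at AP 0 h. The difference was 3.66 ± 0.33 (adjusted p = 4.0e-08) and 2.74 in the rank fit (adjusted p = 6.8e-06), the highest of that fit. IL-27 p28, a subunit of a cytokine of antigen-presenting cells, was 1.33 and 1.69 times the negative control at AP 16 h, with 1.06 and 1.97% of the reference, against 0.142 and 0.214% at AP 0 h. Its difference of 3.06 ± 0.36 (adjusted p = 9.6e-07) was not called on raw intensity (0.35, adjusted p = 0.37), nor after subtraction of the negative control (1.74, adjusted p = 0.20). IL-12 p40, the subunit shared by IL-12 and IL-23, had 0.955 and 1.18% at AP 16 h, against 1.04 and 0.672% at AP 0 h, values that overlapped. At AP 16 h it was 1.20 and 1.01 times the negative control and ranked 68 and 66, against 55 and 57 (rank fit -1.75, adjusted p = 0.00032). IL-17A, the cytokine of type 17 T cells, was above the negative control in 1 of the 16 h samples, with 0.599 and 1.19%, against 0.0699 and 0.116% at AP 0 h (rank fit 1.25 ± 0.54, adjusted p = 0.063). The value for IL-17A rested on 1 sample, with 2.36 (adjusted p = 0.00042) without the first 16 h sample and 0.24 (adjusted p = 0.64) without the second, and with the replicate number as a block it passed (adjusted p = 0.048). LIF and IL-1α were above the negative control in neither 16 h sample and did not pass relative to the reference spots. Their rank differences were -2.14 (adjusted p = 0.00013) for LIF and -1.99 (adjusted p = 0.0065) for IL-1α, and that of IL-1α was lost without the first 16 h sample (adjusted p = 0.075). IL-1β and IL-6, both inducers of the acute phase, were not measured above background at AP 16 h, with 0.513 and 0.592% of the reference for IL-1β and 0.254 and 0.679% for IL-6, against 0.0552 and 0.0767% for IL-1β and 0.212 and 0.214% for IL-6 at AP 0 h. TNF-α was above the negative control in 1 of the 16 h samples, with 0.861 and 0.774%, against 0.159 and 0.151% at AP 0 h. Of the 7 hematopoietic growth factors only M-CSF and Flt-3 Ligand were above the negative control in both 16 h samples. M-CSF, which keeps macrophages alive, ranked 35 in both at AP 16 h and 33 in both at AP 0 h, and Flt-3 Ligand 57 and 54, against 54 in both.

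Abundant plasma proteins were measured with little spread. The plasma carriers and protease inhibitors had 3 of 4 members with a higher rank. RBP4, the carrier of retinol, ranked 29 in both 16 h samples, against 42 in both at AP 0 h (rank fit 0.81, adjusted p = 0.0005), and Cystatin C, an inhibitor of cysteine proteases, ranked 31 and 30, against 39 in both (rank fit 0.50, adjusted p = 0.00046). Serpin F1, the inhibitor of vessel growth also called PEDF, had 13.8 and 13.2% of the reference at AP 16 h, against 2.75 and 2.57% at AP 0 h, a difference of 2.35 ± 0.12 (adjusted p = 1.5e-11) that was -0.35 on raw intensity. Fetuin A, a liver glycoprotein known in humans to fall in the acute phase, ranked 30 and 33, against 26 and 27 (rank fit -0.33), a call lost without the second 16 h sample. Relative to the reference spots Fetuin A was called higher (0.43). Among 5 IGF-binding proteins, which carry insulin-like growth factors in plasma, IGFBP-1 was the only one to pass the rank fit. It was the second brightest analyte of both 16 h membranes, with 186 and 174%, against 43.3 and 37.5% and ranks of 6 and 8 at AP 0 h (rank fit 0.86, adjusted p = 6.5e-06). Its raw intensity was lower, at 47613 and 43988 at AP 16 h against 70662 and 63098 at AP 0 h. IGFBP-6 ranked 7 in all 4 samples, and IGFBP-2 ranked 8 in both 16 h samples, against 8 and 6.

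Of 6 hormones of fat tissue and stress, 1 was higher and 2 were lower by rank, shares near the 29.7% of all analytes called each way. Resistin, which adipocytes make in mice, ranked 12 and 16 at AP 16 h, against 25 and 26 at AP 0 h (rank fit 0.71, adjusted p = 1.7e-06). Adiponectin, the abundant hormone of adipocytes, had 66.6 and 67.0% of the reference at AP 16 h and 47.9 and 52.0% at AP 0 h, but ranked 10 in both samples, against 5 in both (rank fit -0.79, adjusted p = 1.2e-06). The stress hormones were dim. FGF-21, a hormone of the fasted liver, had 1.08 and 1.33% at AP 16 h and 0.387 and 0.336% at AP 0 h, with ranks of 64 in both, against 65 and 66 (rank fit 0.20 ± 0.26, adjusted p = 0.53). GDF-15, a cytokine of stressed cells, was above the negative control in neither 16 h sample, with ranks of 85 and 89.5, against 95 and 88 (rank fit 0.19 ± 0.25, adjusted p = 0.53).

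Of 6 vessel growth regulators, 3 had a lower rank at AP 16 h and 1 a higher one, where 29.7% of all analytes were called each way. The member with the higher rank was not above the negative control in both 16 h samples. Of 3 proteins of lipoprotein metabolism, 2 had a lower rank and 0 a higher one. Relative to the reference spots every member of both lists was called higher, as were 86.5% of all analytes. Angiopoietin-1, the platelet and pericyte ligand that steadies vessels, ranked 5 in both 16 h samples, against 2 and 1 at AP 0 h (rank fit -0.57, adjusted p = 4.4e-05). Endostatin, a collagen fragment that restrains vessel growth, ranked 23 and 26, against 17 and 15 (rank fit -0.57, adjusted p = 4.7e-05). Angiopoietin-2, the endothelial antagonist of the same receptor, ranked 20 and 19, against 16 and 14, and its rank call (-0.30, adjusted p = 0.013) was lost without the first 16 h sample (adjusted p = 0.078) or the second 0 h sample (adjusted p = 0.087). VEGF was above the negative control in neither 16 h sample, with 0.642 and 0.549%, against 0.175 and 0.208% at AP 0 h. Angiopoietin-like 3, an inhibitor of lipoprotein lipase, ranked 15 in both 16 h samples, against 10 and 9 at AP 0 h (rank fit -0.32, adjusted p = 0.00024). DKK-1, a secreted Wnt antagonist, had 10.3 and 10.2% at AP 16 h and 8.74 and 8.87% at AP 0 h, and ranked 46 in both, against 40 and 41 (rank fit -0.48, adjusted p = 0.004). Relative to the reference spots DKK-1 was called higher (0.22, adjusted p = 0.044). Over the 18 limma settings it was called higher in 6 and lower in 4. At AP 2 h it had 29.1 and 32.9%, and the log2 difference of 16 h to 2 h was -1.59.

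Shed immune and injury receptors had 4 of 6 members with a lower rank, against 29.7% of all analytes, 0 with a higher one and a median of -0.70, and 4 of the 6 were above the negative control in neither 16 h sample. The rank call of DPPIV (-0.21), a peptidase shed from cell surfaces, was lost without any 1 of the 4 samples. Relative to the reference spots DPPIV was called higher (0.53). RAGE, the receptor for advanced glycation end products, was one of the 4 receptors above the negative control in neither 16 h sample. It had a raw intensity of 171 and 166 at AP 16 h, against 1000 and 1036 at AP 0 h. Relative to the reference its values were nearly equal, 0.669 and 0.655% at AP 16 h and 0.613 and 0.616% at AP 0 h, while its rank was 89.5 and 92.5, against 61 and 58 (rank fit -2.40, adjusted p = 0.00011). C1q R1, a receptor shed by myeloid and endothelial cells, was well above background, with 11.8 and 10.7% at AP 16 h and 12 and 11.7% at AP 0 h, and ranked 44 in both 16 h samples, against 36 and 34 (rank fit -0.67, adjusted p = 4.6e-05).

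**Figure D3:**
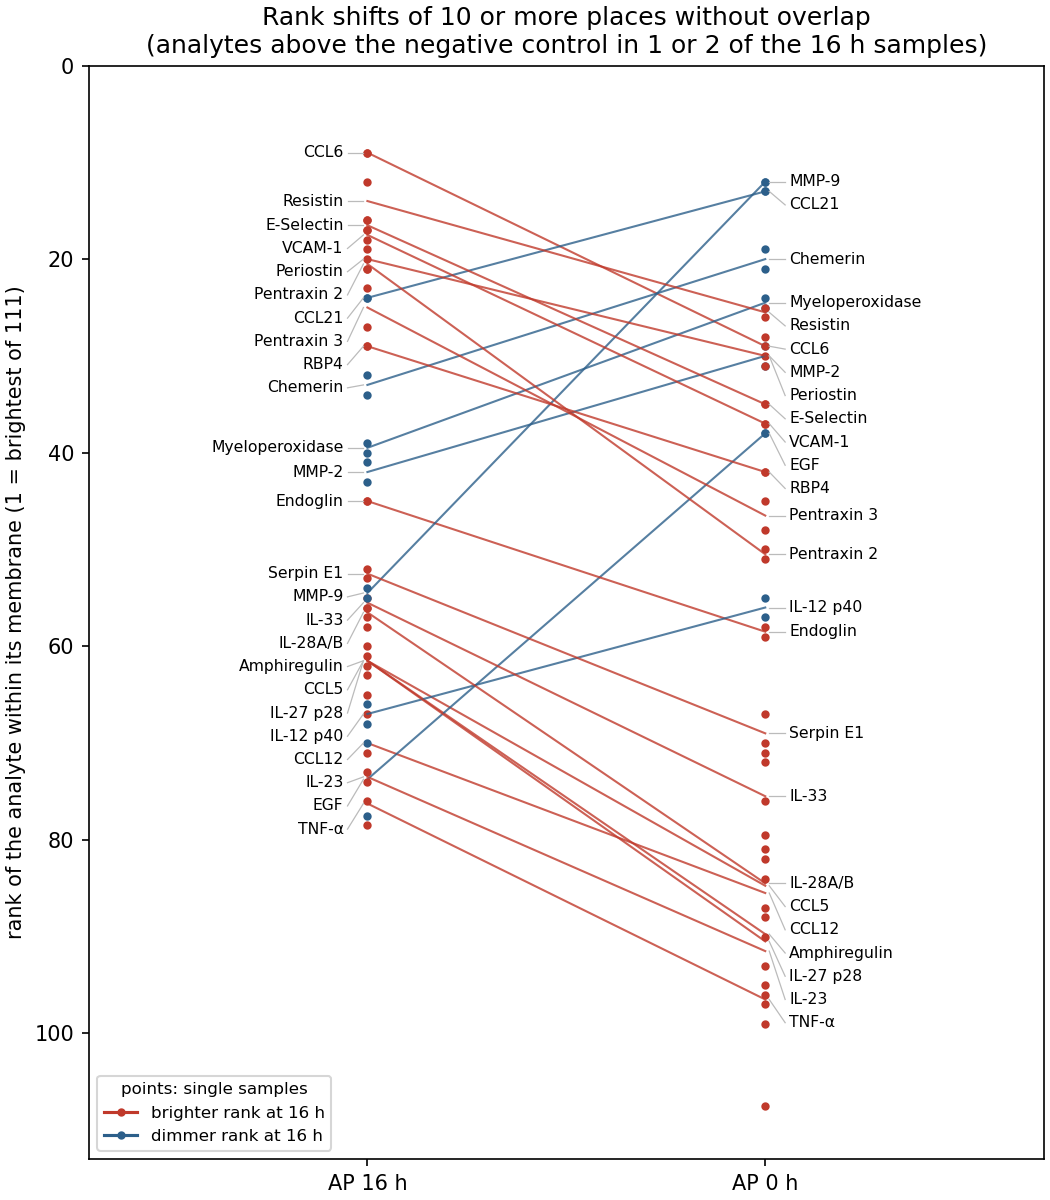
Rank within the membrane (1 is the brightest of 111, at the top) at AP 16 h on the left and AP 0 h on the right, for analytes above the negative control in at least 1 of the 16 h samples whose mean rank shifted by 10 or more places without overlap. Points are single samples and lines join the means of 2; CCL6 (9 in both 16 h samples), E-Selectin, VCAM-1 and Pentraxin 2 moved up, and MMP-9 (54 and 55 at AP 16 h, 12 in both at AP 0 h) and EGF moved down.

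By rank alone, without a fit, 24 analytes gained 10 or more places with no overlap between the groups (21.6%) and 20 lost as many (18%). When only the 65 analytes above the negative control in both 16 h samples were ranked, 9 gained and 6 lost as many places. The median gap between replicates was 2 places in each group. It was at most 4 at AP 16 h and 3 at AP 0 h among the 30 brightest, and up to 34.5 at AP 16 h and 35.5 at AP 0 h among all. The 10 brightest analytes held 50.1 and 50.2% of the summed analyte intensity at AP 16 h, against 44.1 and 44.4% at AP 0 h.

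**Figure D4:**
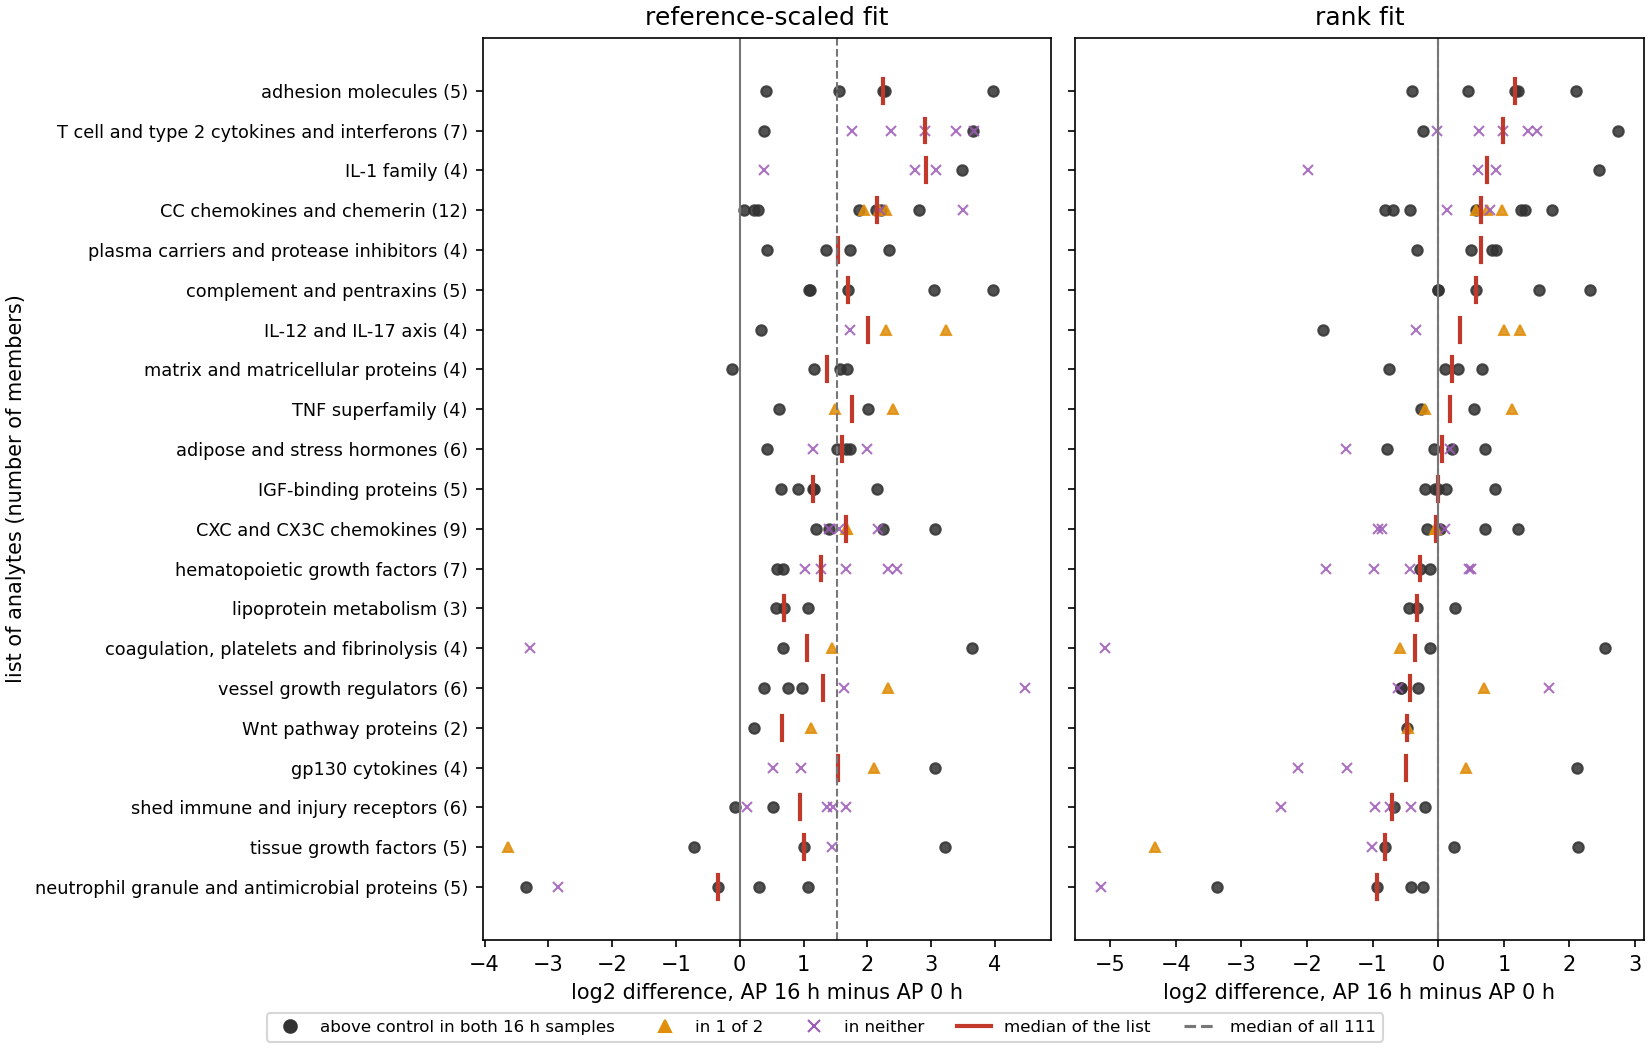
Log2 difference of AP 16 h minus AP 0 h for every analyte, 1 line per list, in the reference-scaled fit (left) and the rank fit (right). Red bars are list medians and the dashed line is the median of all 111 (1.53 on the left, -0.011 on the right). Crosses are analytes above the negative control in neither 16 h sample. By rank, the adhesion molecules with Endoglin (median 1.17) and the neutrophil granule and antimicrobial proteins (-0.93) are at the ends.

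The earlier AP samples show whether the values at 16 h had been reached before. Both 16 h samples lay above every other AP sample for 36 analytes (32.4%), 19 of them above the negative control in both 16 h samples, and below every other for 5 (4.5%), namely MMP-9, PDGF-BB, Lipocalin-2, HGF and MMP-2. The reference-scaled intensity at AP 16 h was higher than at AP 2 h for 27 analytes (24.3%) and lower for 44 (39.6%), which in this design tests whether the change since 0 h differed between the times. This split also depended on scaling, with 89 higher and 6 lower after median scaling, 15 and 73 with the negative control subtracted, 51 and 31 with the first reference row alone and 14 and 55 with the second alone. Pentraxin 2 went through 3.43 and 2.31% of the reference at 0 h, 14.4 and 14.1% at 0.5 h, 6.90 and 7.11% at 2 h, then 43.0 and 44.9% at 16 h. CCL6 was still at 13.9 and 12.8% at 2 h, below 0 h, and 68.1 and 73.7% at 16 h (difference to 2 h 2.41, adjusted p = 2.0e-13). The samples of VCAM-1 and E-Selectin lay above those of the time before at each step, with 18.6 and 15.6% at 0.5 h, then 30.1 and 25.2% at 2 h for VCAM-1. E-Selectin read 20.5 and 20.7% at 0.5 h, then 30.7 and 34.2% at 2 h. Serpin E1 and Endoglin were lower at 16 h than at 2 h relative to the reference spots, although Endoglin had a difference of 0.22 (adjusted p = 0.43) with median scaling. Serpin E1 had 4.71 and 4.33% at 0.5 h, 20.8 and 22.0% at 2 h, then 3.85 and 3.57% at 16 h. Endoglin read 9.03 and 9.92% at 0.5 h, 32.6 and 37.2% at 2 h, then 11.1 and 10.6% at 16 h.

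EGF had its low level from the first time on, with 0.410 and 0.376% at 0.5 h, 0.941 and 0.635% at 2 h, then 0.802 and 0.912% at 16 h, and the difference between 16 h and 2 h did not pass (0.15 ± 0.33, adjusted p = 0.72). MMP-9 was still at 53.9 and 58.3% at 0.5 h, then at 30.3 and 29.0% at 2 h, close to its 0 h values, before 3.28 and 2.72% at 16 h. PDGF-BB went through 1.65 and 2.06% at 0.5 h, then 22.4 and 23.4% at 2 h, above its 0 h values, before it was no longer above the negative control at 16 h. HGF had 11.5 and 12% at 0.5 h, then 16.4 and 16.1% at 2 h, so that 4.00 and 3.88% at 16 h followed its highest values, a difference to 2 h that was lost with median scaling (-0.14, adjusted p = 0.57). RAGE, Coagulation Factor III and FGF acidic had their highest values at 2 h. RAGE had 24.3 and 23.4% there, Coagulation Factor III 13.6 and 13.4% and FGF acidic 11.4 and 10.8%, and the log2 differences of 16 h to 2 h were -5.17 for RAGE, -4.08 for Coagulation Factor III and -4.82 for FGF acidic. None of the 3 was called lower than at 0 h relative to the reference spots, where Coagulation Factor III and FGF acidic were called higher (1.44 for each). In the rank fit RAGE and FGF acidic were called lower than at 0 h. Of the 3, only Coagulation Factor III exceeded the negative control at 16 h, in 1 sample.

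**Figure D5:**
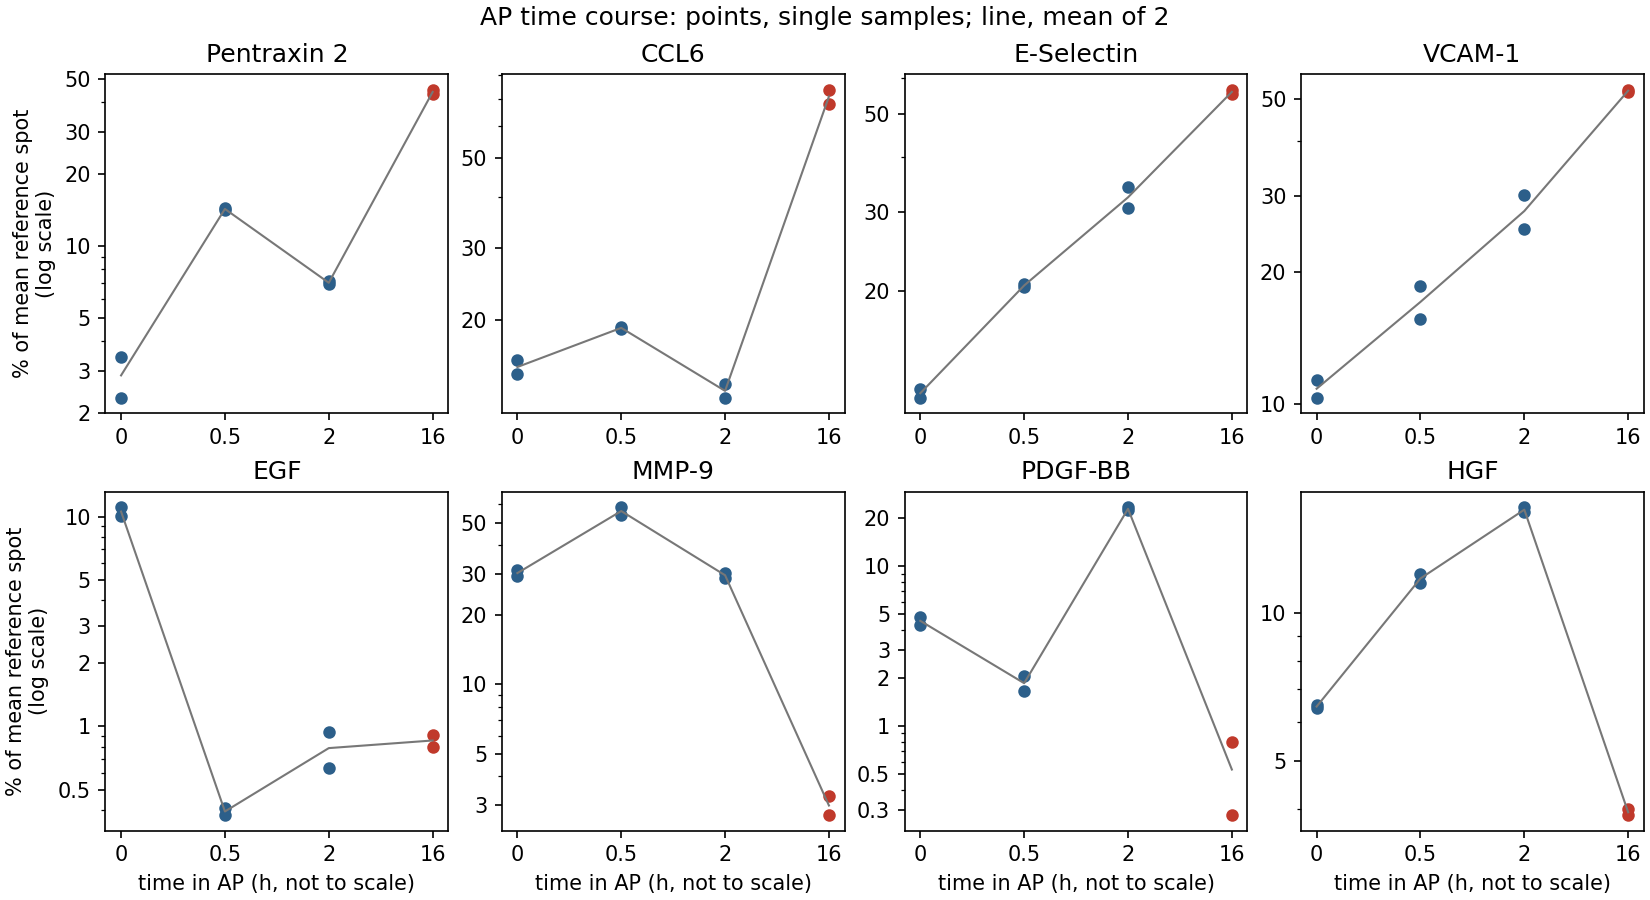
Intensity in percent of the mean reference spot on a log scale against time in AP (0, 0.5, 2 and 16 h, not to scale) for 8 analytes, with single samples as points (16 h in red) and the mean of 2 joined by a line. Pentraxin 2, CCL6, E-Selectin and VCAM-1 are highest at 16 h, EGF is low from 0.5 h on, and MMP-9, PDGF-BB and HGF are lowest at 16 h.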

How the data were processed

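Serum of mice was measured on mouse XL cytokine array membranes, and the authors quantified the spots with ImageJ. Whether a background was subtracted is not given in the sources used here. The deposited files hold raw intensity per analyte and a normalized intensity, in which the authors multiplied each sample by a factor that evens out the reference spots between replicates. That factor does not scale groups to each other, so raw intensity was used, divided by the mean of the 3 reference rows of the membrane. Folds that the authors computed were not used. The number of samples, 2 per group, limits the precision, and depth has no meaning for spots.

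log2 values were fitted with limma 3.58.1 in R 4.3.3 (lmFit, contrasts.fit, eBayes with a trend) over all 14 samples of 7 groups, with p-values adjusted by Benjamini-Hochberg over 111 analytes and a threshold of 0.05. The rank fit used quantile-normalized log2 raw intensity. An exact permutation test of 2 against 2 samples cannot go below a two-sided p of 0.333. A value at or below the negative control of its membrane counts as not above background; a bound takes, per 16 h sample, the higher of the analyte and the lowest analyte above the control. Entrez identifiers of 111 of 111 analytes matched RefSeq, and 0 columns of sample values were left unused. The reference-scaled fit was tested on 20 simulations with 30 of 111 analytes shifted by 1 on the log2 scale, of which 74% were recovered. No shift of a whole membrane was simulated, so the simulations cannot speak to the scaling between membranes. Tables were made in pandas 2.3.3 with numpy 2.4.6, and plots in matplotlib 3.10.9 (Python 3.11.15).

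The analytes named are the 12 with the largest positive and the 12 with the largest negative called differences without overlap (6 qualified), the positive ones above the negative control in both 16 h samples, the 8 largest in each direction of the rank fit, those that the study names, and examples from each of 21 lists that cover the array. Members and lists were chosen with earlier results of these data known, and further analytes were named after their values were seen. The values of 1 analyte are not reported here.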

Additional observations from a re-analysis of the deposited data

Results flagged for a closer look

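Among the analytes picked for the largest differences of the reference-scaled and rank fits, the change since 0 h differed between 16 h and 2 h for 15. The test was limma's, of AP 16 h against AP 2 h on reference-scaled intensity. Other analytes named above passed it too, such as CCL6 (2.41), CRP (0.81), Coagulation Factor III (-4.08) and FGF acidic (-4.82). Of the 15, Pentraxin 2 had a larger change at 16 h by 2.65 on the log2 scale (adjusted p = 6.5e-11). The change was also larger at 16 h for IL-27 p28 by 1.20, for VCAM-1 by 0.92 and for IL-28A/B by 0.87. IL-27 p28 (adjusted p = 0.0085) had 0.75 without the second 16 h sample. Its call was lost on raw and on the authors' normalized intensity, in the methods' t-test and with the negative control subtracted, where the sign turned (-0.0577). IL-28A/B (adjusted p = 0.03) had 0.59 to 0.96 without either 16 h sample or without the second 2 h sample. Its call was lost in the same settings, such as raw intensity (adjusted p = 0.27), and with reference row 2 or 3 alone (0.11 and 0.13). Among those that were lower at 16 h than at 2 h, PDGF-BB differed by -5.61, RAGE by -5.17, MMP-9 by -3.31, Serpin E1 by -2.53, Lipocalin-2 by -2.52 and HGF by -2.04. With median scaling the calls of Lipocalin-2 (-0.62, adjusted p = 0.14) and HGF (-0.14, adjusted p = 0.57) were lost. Endoglin differed by -1.68, IL-12 p40 by -1.65, Serpin F1 by -1.08, LIF by -0.89 and CXCL13 by -0.64, but the direction of these 5 turned with median scaling. Then CXCL13 (1.26, adjusted p = 5.4e-06), LIF (1.02, adjusted p = 0.026) and Serpin F1 (0.82, adjusted p = 0.002) were called higher at 16 h, while Endoglin (0.22, adjusted p = 0.43) and IL-12 p40 (0.26, adjusted p = 0.52) did not pass, and CXCL13 was also called higher with quantile normalization (0.48, adjusted p = 0.00074). The call of LIF (adjusted p = 0.037) was lost without any 1 of its 4 samples (-0.95 to -0.83). PDGF-BB, RAGE, Lipocalin-2 and LIF were above the negative control in neither 16 h sample, so that their sizes there are those of the measured spots only.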

How the results depend on the processing

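Counts of analytes higher and lower against 0 h, 96 and 6 relative to the reference spots, became 8 and 80 on raw intensity, 9 and 79 on the authors' normalized intensity, 31 and 28 with median scaling, 48 and 37 with the negative control subtracted (78 values at AP 16 h set to a floor), and 33 and 33 with quantile normalization. With only the 43 analytes above 10 times the negative control at 16 h, a setting chosen after seeing the data, they were 40 and 1, and in the rank fit 13 and 18. The methods' t-test gave 86 and 5, and 82 and 4 after Benjamini-Hochberg. Against 2 h, 27 and 44 became 9 higher on raw and on the authors' normalized intensity, 17 without the lowest 25% of analytes, 51, 14 and 16 with reference row 1, 2 or 3 alone, 89 and 6 with median scaling, 15 and 73 with the negative control subtracted, and 14 higher in the adjusted t-test. Gains of 20 or more places numbered 12 and losses 9, losses of 5 or more 32, and among analytes above the negative control 9 gained and 6 lost 10 or more. With 1.5 times the negative control as the limit, 49 analytes were above it in neither 16 h sample. Fitted to only the 2 groups compared, the rank fit gave 27 higher and 29 lower. It then lost the calls of Amphiregulin (adjusted p = 0.15), IL-27 p28 (0.098), IL-1α (0.085) and Chitinase 3-like 1 (0.058). Leaving out 1 sample gave 93 to 94 higher and 5 to 6 lower relative to the reference spots, 25 to 31 and 26 to 29 in the rank fit, and 18 to 28 and 39 to 42 against 2 h. With the replicate number as a block, the counts were 96 and 6, 33 and 33, and 28 and 44; the numbers share only a label, and the deviations of samples with the same number correlated by 0.11 (-0.18 to 0.50 over 21 pairs of groups). Sign changes relative to the reference spots were traced only for the 18 analytes picked for the largest differences. Among these, Serpin F1 (-0.35 raw, -0.34 authors' normalized) and VCAM-1 (-0.43 raw, -0.41 authors' normalized) changed sign. Other analytes called higher relative to the reference spots were also lower on raw intensity, such as CCL6 (-0.49), IGFBP-1 (-0.55), CRP (-1.01) and DKK-1 (-2.48). In the rank fit CCL22 (-0.15) and Gas 6 (-0.0642) changed sign among the 43 analytes, and FGF-21 (-0.48) without analytes below the negative control. Against 2 h, with median scaling, CXCL13 (1.26), Endoglin (0.22), IL-12 p40 (0.26), LIF (1.02) and Serpin F1 (0.82) changed sign. So did CXCL13 (0.48) with quantile normalization and IL-27 p28 (-0.0577) with the negative control subtracted. The cause was not tested. At 16 h, where the negative control read 203 and 296, 32 analytes exceeded it in no sample and 14 in 1.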
